A study of Mus musculus with 48 samples.

Results

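Transcripts of 10 genes of alveolar macrophages and leukocytes (Marco, Chil3, Lyz2, Ptprc, Cd68, Msr1, Mrc1, Csf1r, Fcer1g and Tyrobp) were followed in cultures of mouse alveolar epithelial type II cells, called AECII in the labels, and of smooth muscle cells of the pulmonary artery, called PASMC. The genes were chosen by name, and all 10 are among the 20738 genes with a named probe. The study asked how an extract of e-cigarette vapour (ECVE) acts on the transcripts of both cell types. Neither culture is labelled as one of macrophages or other leukocytes.

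The samples were 48 single-colour Agilent arrays in 6 groups of 8. For each cell type the groups were Ctrl, which the labels give as room air, 0mg and 18mg. The 0mg and 18mg cells received 15% ECVE whose e-liquid contained no nicotine (0 mg/ml) or nicotine at 18 mg/ml. Exposure lasted 24 h. All cells came from C57Bl/6J mice, 8 according to the design text, whose age is not given in the sources used here. AECII were exposed 24 h after isolation in medium with 10% serum. PASMC, whose preparation used iron particles, were left for 5 days, freed of the particles and grown to passage 1 in medium with 15% serum. The labels do not say which array number belongs to which mouse, nor that arrays of a group came from separate cultures, so p-values measure the spread between these arrays, which may share mice or be technical.

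Alveolar macrophages live on the air side of the alveoli, where they take up particles, microbes and spent surfactant, and they depend on CSF2 made by type II cells. Marco, Msr1 and Mrc1 are uptake receptors of macrophages, Chil3 and Lyz2 are abundant secreted or granule products, and Fcer1g and Tyrobp are short adaptor proteins that join activating receptors to the kinase Syk. Csf1r is the receptor for the macrophage growth factor CSF1, Ptprc encodes the common leukocyte antigen CD45, and Cd68 encodes a lysosomal glycoprotein. Lyz2 is also made by type II cells, so alone it does not mark macrophages in AECII.

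The 5 promoters below belong to members that varied widely from array to array and varied together. They are shown because PU.1, the transcription factor that myeloid genes share, binds sites such as GAGGAA, called the core here. Capitals mark each GAGGAA, or TTCCTC where the core lies on the opposite strand. Each sequence is 300 bases of RefSeq (GRCm38.p6), read 5′ to 3′ on the strand of the gene, from 250 bases before to 50 bases after its start. Marco is at chr1:120504975-120505274 (minus strand), Mrc1 at chr2:14229164-14229463 (plus strand), Chil3 at chr3:106167515-106167814 (minus), Lyz2 at chr10:117282223-117282522 (minus) and Fcer1g at chr1:171234300-171234599 (minus).
Marco: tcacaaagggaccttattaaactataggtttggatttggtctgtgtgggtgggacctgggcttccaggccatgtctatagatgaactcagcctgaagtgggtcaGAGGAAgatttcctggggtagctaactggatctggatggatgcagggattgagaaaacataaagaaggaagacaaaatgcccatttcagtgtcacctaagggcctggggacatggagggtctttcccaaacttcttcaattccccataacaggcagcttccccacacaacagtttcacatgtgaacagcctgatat
Mrc1: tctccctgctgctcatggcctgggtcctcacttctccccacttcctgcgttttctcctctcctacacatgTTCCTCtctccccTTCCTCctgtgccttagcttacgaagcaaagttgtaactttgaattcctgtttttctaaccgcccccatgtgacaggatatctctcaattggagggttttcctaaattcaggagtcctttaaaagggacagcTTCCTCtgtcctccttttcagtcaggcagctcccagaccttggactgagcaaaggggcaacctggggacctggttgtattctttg
Chil3: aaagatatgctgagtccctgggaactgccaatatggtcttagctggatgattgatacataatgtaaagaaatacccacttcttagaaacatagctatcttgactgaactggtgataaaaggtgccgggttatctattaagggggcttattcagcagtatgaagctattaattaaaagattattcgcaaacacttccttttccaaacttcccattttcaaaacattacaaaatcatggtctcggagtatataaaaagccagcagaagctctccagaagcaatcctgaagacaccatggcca
Lyz2: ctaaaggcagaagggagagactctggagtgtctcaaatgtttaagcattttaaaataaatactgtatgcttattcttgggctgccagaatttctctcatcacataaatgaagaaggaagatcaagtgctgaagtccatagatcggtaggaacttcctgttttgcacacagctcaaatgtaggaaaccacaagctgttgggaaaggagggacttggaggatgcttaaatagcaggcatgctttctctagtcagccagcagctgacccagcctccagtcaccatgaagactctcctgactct
Fcer1g: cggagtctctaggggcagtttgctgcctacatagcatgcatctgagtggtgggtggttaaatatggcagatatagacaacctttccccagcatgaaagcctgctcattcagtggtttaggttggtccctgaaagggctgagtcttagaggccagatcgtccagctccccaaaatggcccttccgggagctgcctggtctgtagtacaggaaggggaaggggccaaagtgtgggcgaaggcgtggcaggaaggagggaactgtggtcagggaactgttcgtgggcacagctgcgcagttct
Marco held 1 such core and Mrc1 held 3, and Chil3, Lyz2 and Fcer1g held none in this window. Among the 7 members whose promoters were compared, 4 held the core, Cd68 and Ptprc being the others. Csf1r was left out of this search, and Msr1 and Tyrobp had no promoter sequence to compare. It was present in 28.28% of the 32851 mouse promoters of the same length, and in at least 1 promoter of 31.25% of the 27025 genes. The longer GAGGAAGT was in 3.2% of all promoters and in none of these members. A match says only that the letters are there, and a missing match does not show that PU.1 has no site. These 5 members were split between promoters with and without the core.

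Values are log2 intensities that the deposited table already holds in quantile-normalised form, with an array median of 2.97 to 2.98 and a highest value of 15.89. A value under 3.98, which is the array median plus 1, is called near background here. Marco, Chil3, Lyz2, Csf1r, Fcer1g and Tyrobp were at or above that line on all 24 arrays of each cell type. Mrc1 was at or above it on 22 AECII and 13 PASMC arrays. The other members were near background on most arrays of both cell types: Ptprc reached the line on 5 AECII and 2 PASMC arrays, Cd68 on 4 and 5, and Msr1 on 0 and 4. Macrophage transcripts were thus plentiful in both cultures by some members, while the probes for CD45, CD68 and the scavenger receptor Msr1 gave values near background on most arrays. In whole cultures such as these, fewer cells of a type and less RNA per cell cannot be told apart.

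Both cultures carried the transcripts of their own cell type. Of the 9 tested type II markers, 8 were higher in control AECII, and all 9 tested smooth muscle markers were higher in control PASMC. Each culture also gave signal for the other list. Acta2, smooth muscle actin, had a mean of 11.71 over AECII arrays and 14.97 over PASMC arrays. The mean over type II markers ran from 4.71 to 7.22 across PASMC arrays, against 8.79 to 9.52 across AECII arrays. The correlation between arrays of 1 group was 0.978 to 0.986 for AECII, and for PASMC it was 0.953 to 0.986.

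**Figure D1:**
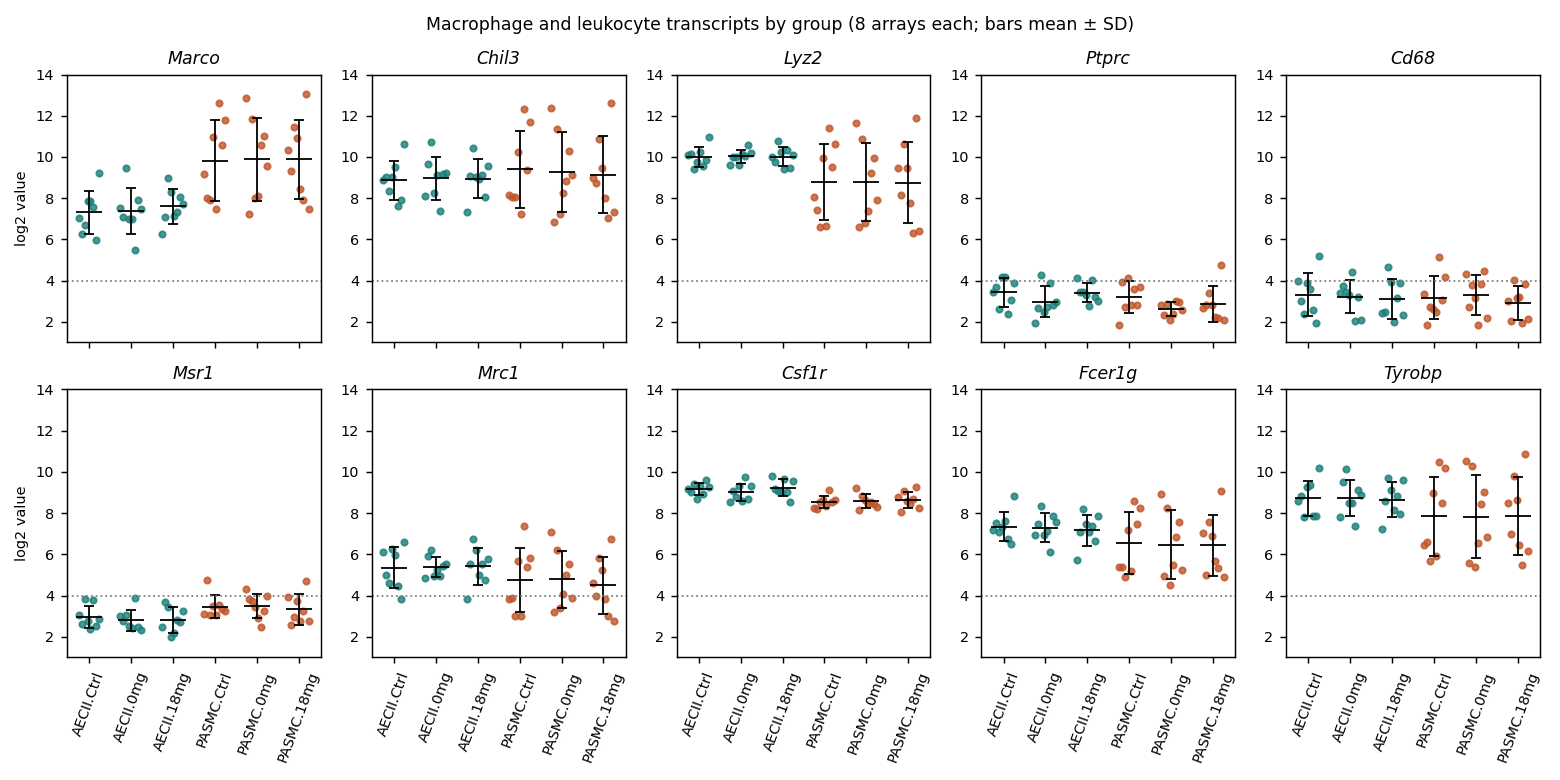
Each panel plots 1 gene, with the log2 value on the vertical axis and the 6 groups on the horizontal axis; points are arrays, bars are mean ± SD over 8 arrays, and the dotted line at 3.98 marks the limit called near background. Within a cell type the 3 groups overlap widely for Marco, Chil3, Lyz2, Fcer1g and Tyrobp, while PASMC arrays spread over a wider range than AECII arrays.

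Among the uptake receptors, Marco, which binds bacteria and unopsonised particles, was well above background everywhere. Its control values ran from 5.97 through a median of 7.30 to 9.24 in AECII and from 7.49 through 9.89 to 12.63 in PASMC. With the extract they ran from 5.51 through 7.28 to 9.46 (0mg) and from 6.26 through 7.52 to 8.97 (18mg) in AECII. In PASMC they ran from 7.24 through 10.06 to 12.87 (0mg) and from 7.49 through 9.85 to 13.07 (18mg). The 3 conditions overlapped within each cell type, and the means of the groups followed the cell type and not the extract. Those means were 7.32 ± 1.05, 7.37 ± 1.11 and 7.60 ± 0.84 in AECII and 9.82 ± 1.95, 9.90 ± 2.01 and 9.88 ± 1.92 in PASMC for Ctrl, 0mg and 18mg (SD, n = 8 each). Marco lies at chr1:120474538-120505024 in GRCm38.

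Mrc1, the mannose receptor, was closer to the background line. In control cells it ran from 3.83 through 5.50 to 6.62 in AECII and from 2.99 through 4.63 to 7.36 in PASMC. Under 0mg and 18mg its means were 5.39 ± 0.50 and 5.42 ± 0.91 in AECII, against 5.36 ± 1.01 in controls, and 4.79 ± 1.40 and 4.50 ± 1.37 in PASMC, against 4.75 ± 1.55 (SD, n = 8). The lowest PASMC arrays were near background and the highest PASMC array of all exceeded every AECII array. Msr1, the class A scavenger receptor, had group means near background. It ran from 1.97 to 3.87 over the AECII arrays and from 2.47 to 4.75 over the PASMC arrays, 4 of which reached the line. Its probe that was not used also had group means near background, with 1 PASMC control at 5.42.

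The secreted products were bright. Chil3, a chitinase-like protein of mouse alveolar macrophages, ran from 7.60 through 8.95 to 10.63 in control AECII and from 7.25 through 8.76 to 12.31 in control PASMC. With the 18mg extract its range was 7.33 to 10.46 in AECII (median 9.06) and 7.06 to 12.63 in PASMC (median 8.85). The highest PASMC arrays thus lay above all AECII arrays although the medians were close. Lyz2, lysozyme, was even across the AECII controls, from 9.43 through 9.96 to 10.96, and uneven across the PASMC controls, from 6.59 through 8.78 to 11.43. In 18mg cells its range was 9.40 to 10.78 in AECII and 6.32 to 11.87 in PASMC. It was the member whose spread differed most in size between the cultures: its SD within groups was 0.43 in AECII and 1.91 in PASMC.

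The adaptors behaved alike. Tyrobp (DAP12), at chr7:30413782-30417582, ran from 7.83 through 8.71 to 10.17 in control AECII and from 5.66 through 7.55 to 10.46 in control PASMC. Fcer1g, the common gamma chain of Fc receptors, ran from 6.53 through 7.24 to 8.84 in control AECII and from 4.90 through 6.28 to 8.60 in control PASMC. For both adaptors 4 of the 8 PASMC controls lay below every AECII control. Under 18mg the Tyrobp means were 8.65 ± 0.84 in AECII and 7.86 ± 1.89 in PASMC, and those of Fcer1g were 7.18 ± 0.76 and 6.44 ± 1.47 (SD, n = 8), close to their controls at 8.72 ± 0.85 and 7.84 ± 1.92 for Tyrobp and 7.35 ± 0.71 and 6.54 ± 1.49 for Fcer1g.

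Csf1r behaved differently from the other bright members. It ran from 8.70 through 9.20 to 9.59 in control AECII and from 8.22 through 8.55 to 9.12 in control PASMC, a narrow range in both. The group means were 9.17 ± 0.28, 9.01 ± 0.42 and 9.23 ± 0.41 in AECII and 8.54 ± 0.29, 8.57 ± 0.34 and 8.64 ± 0.40 in PASMC for Ctrl, 0mg and 18mg (SD, n = 8). Csf1r has 3 probes, of which the brightest was used. The other probes had means of 4.76 and 4.29 in AECII and of 4.71 and 3.74 in PASMC, and correlated with the brightest at -0.17 and 0.55 in AECII and at -0.14 and 0.40 in PASMC. The probes of this gene thus disagree, and what follows on Csf1r describes 1 probe unless stated otherwise.

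Ptprc and Cd68 had a mean near background in every group. The group means of Ptprc lay between 2.62 (PASMC, 0mg) and 3.43 (AECII, Ctrl), and those of Cd68 between 2.92 (PASMC, 18mg) and 3.32 (AECII, Ctrl). The highest single arrays reached 4.74 for Ptprc and 5.21 for Cd68. Transcripts of the neighbouring lists gave the same mixed picture. Of the macrophage and monocyte list, Spi1 (PU.1 itself), Fcgr1 and Cd163 did not pass the filter on dim genes, Adgre1 (F4/80) was near background with means of 3.34 in AECII and 3.56 in PASMC, and Mpeg1, Ctss and Clec7a were well above it, Clec7a with 8.69 and 7.50.

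The next comparison asked whether the extract changed these transcripts. No member passed: 0 of the 10 were called at an adjusted p under 0.05 in any of the 3 comparisons within AECII or the 3 within PASMC (limma, Benjamini-Hochberg over all tested genes). All 10 members passed the filter on dim genes in both cell types. Few genes of any kind were called. In AECII the share of all 14477 tested genes called was 0% for each extract against control and 0% between extracts. In PASMC, with 14545 genes tested, it was 0% for 0mg against Ctrl, 0.0275% (4 genes, all lower) for 18mg against Ctrl and 0% between extracts. At an unadjusted p under 0.05 the members numbered 0 in each comparison too. Over all tested genes that limit took 480 (3.32%), 341 (2.36%) and 447 (3.09%) in AECII for 0mg against Ctrl, 18mg against Ctrl and 18mg against 0mg. In PASMC it took 402 (2.76%), 589 (4.05%) and 282 (1.94%).

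The size of what could have been missed differed between the cultures. Marco differed by 0.055 (95% interval -0.93 to 1.04) with 0mg and by 0.28 (-0.71 to 1.27) with 18mg in AECII. In PASMC its differences were 0.073 (-1.86 to 2.00) and 0.054 (-1.88 to 1.98). The intervals follow the spread between arrays, and a doubling of Marco (a log2 difference of 1) would lie inside them in both cell types. The fit treats the arrays as unpaired. If arrays of the conditions share mice, part of that spread would be common to them, and a paired fit could give narrower intervals. The labels give no pairing, so no fit paired by mouse was run. Lyz2 in AECII had the tightest bounds among the macrophage products, 0.023 (-0.41 to 0.45) with 0mg and 0.012 (-0.42 to 0.44) with 18mg. Csf1r was bounded to -0.32 to 0.39 (0mg) and -0.25 to 0.45 (18mg) in PASMC. For Tyrobp in PASMC the differences were -0.014 (-1.93 to 1.90) and 0.019 (-1.89 to 1.93). The smallest unadjusted p of any member was 0.105, for Ptprc in PASMC with 0mg (-0.57, interval -1.27 to 0.13, limma), where its values were near background.

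Across the 10 members the differences from control ran from -0.46 to 0.088 (median -0.018) with 0mg and from -0.21 to 0.28 (median 0.0028) with 18mg in AECII. In PASMC they ran from -0.57 to 0.11 (median 0.020) and from -0.32 to 0.10 (median -0.12). The medians over all tested genes were 0.0095, 0.012, 0.0038 and 0.0066 in the same order. Both extracts were compared with the same control arrays, so these columns are not independent of each other. No member passed the test of whether the response differed between the cell types: 0 of 10 were called for either extract, as were 0% of all 14775 genes (limma). Of all genes, 393 (2.66%) for 0mg and 382 (2.59%) for 18mg had an unadjusted p under 0.05, with 0 members among them.

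**Figure D2:**
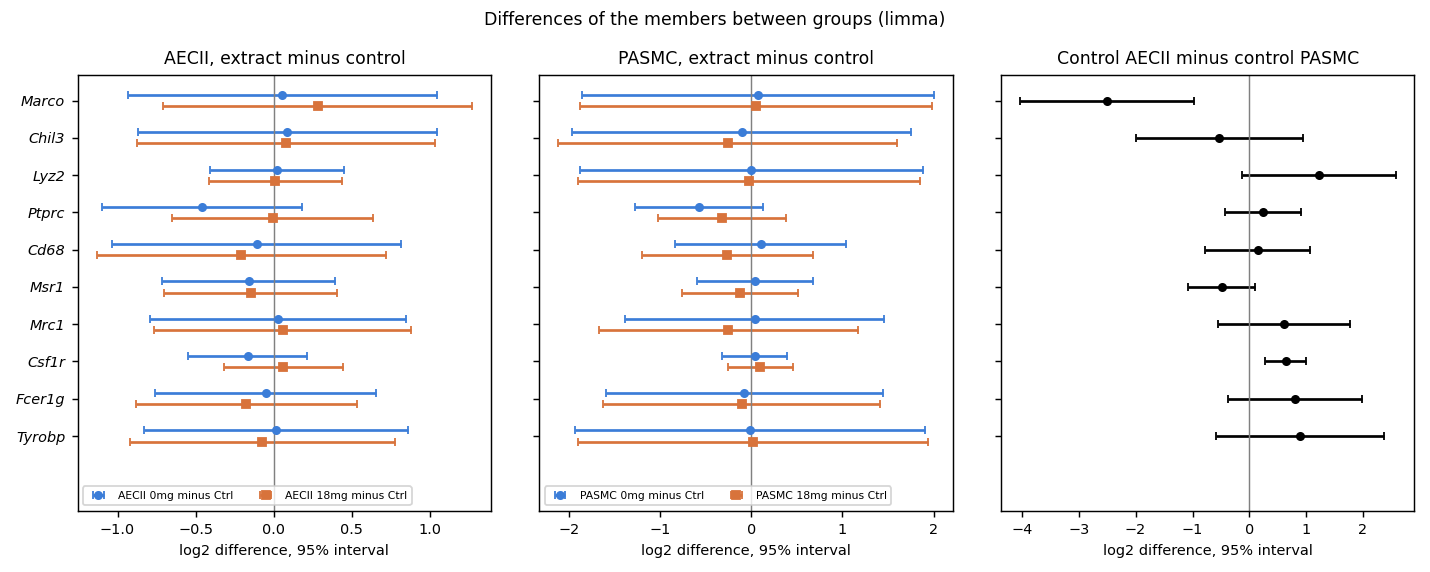
Points are log2 differences between group means with 95% intervals from limma, 1 row per gene; the left and middle panels compare 0mg and 18mg with Ctrl in AECII and PASMC, and the right panel compares control AECII with control PASMC. All intervals of the left and middle panels include 0, and in the right panel those of Marco (-2.51) and Csf1r (0.64) do not.

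The related lists gave no calls with the extract either. Of the genes tested in AECII, 0 of 11 alveolar macrophage markers (such as Siglecf and Itgax), 0 of 19 macrophage and monocyte genes, 0 of 16 genes common to leukocytes, 0 of 14 receptors and kinases that work with Fcer1g and Tyrobp, 0 of 6 genes of the CSF1 and CSF2 systems and 0 of 8 other scavenger and lectin receptors were called in either direction for either extract. In PASMC the same held for 0 of 10, 0 of 18, 0 of 16, 0 of 15, 0 of 6 and 0 of 8. The median difference of the leukocyte list was -0.014 and 0.025 in AECII with 0mg and 18mg, and -0.027 and -0.14 in PASMC.

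Between the control cultures, 2 of the 10 members differed, and this is a lower share than among all genes, of which 59.2% were called (62.3% at an unadjusted p under 0.05, which took the same 2 members). Marco was lower in AECII than in PASMC by a log2 difference of -2.51 (SE 0.76, 95% interval -4.04 to -0.98, adjusted p 0.0041, limma). All 8 PASMC controls lay above the AECII mean, 4 of them above every AECII control, and 4 AECII controls lay below every PASMC control. Csf1r was higher in AECII by 0.64 (SE 0.18, interval 0.27 to 1.00, adjusted p 0.00217, limma), with 7 PASMC controls below every AECII control. Over all genes 27.9% were called higher in AECII and 31.3% lower, and the members had 1 call each way. The other Csf1r probes had control means of 4.85 ± 0.53 and 4.38 ± 0.73 in AECII and 4.68 ± 0.29 and 3.53 ± 0.81 in PASMC (SD, n = 8). Both were higher in AECII, which was not tested. With an extract each probe was lower in AECII once, the brighter with 18mg (4.52 against 4.87) and the dimmer with 0mg (3.82 against 3.93).

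The remaining members did not pass this test. Their differences, AECII minus PASMC, were 1.22 (SE 0.67, adjusted p 0.118) for Lyz2, 0.89 (0.73, 0.309) for Tyrobp, 0.81 (0.59, 0.241) for Fcer1g, 0.61 (0.57, 0.377) for Mrc1 and -0.53 (0.73, 0.561) for Chil3 (limma). The dim members gave -0.49 for Msr1, 0.23 for Ptprc and 0.14 for Cd68. The call for Lyz2 depended on 1 array: without PASMC control replicate 6, its highest, the difference was 1.60 with an adjusted p of 0.0381 (limma). The sizes of the others depended on single arrays too, with no call gained. Leaving out each control array in turn gave -0.83 to -0.11 for Chil3, 0.36 to 0.98 for Mrc1, 0.57 to 1.26 for Tyrobp and 0.57 to 1.10 for Fcer1g. It gave -0.61 to -0.30 for Msr1, 0.040 to 0.38 for Ptprc and -0.13 to 0.43 for Cd68, which changed sign. The values nearest and farthest from 0 for Chil3 came without PASMC control replicates 6 and 5, and the sign of Cd68 changed without AECII control replicate 8 and without PASMC control replicate 2. The median of the members was 0.42, against -0.044 over all tested genes.

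Other genes of macrophages were called between the control cultures in both directions, in no list below at a share above the 59.2% of all tested genes, so the counts are a description and not a result about these lists. Of the 11 alveolar macrophage markers tested, 4 were higher in AECII, namely Pparg (3.14), Krt79 (2.98), Plet1 (2.38) and the integrin Itgax (2.15). Fabp4 (-1.80) and Car4 (-0.82) were lower. Of the 18 macrophage and monocyte genes 5 were higher and 5 lower, with the invariant chain Cd74 (4.65), lysozyme Lyz1 (1.58), Mpeg1 (1.43) and Cd14 (1.12) among the first and Apoe (-3.12), Gpnmb (-1.60), the efferocytosis receptor Mertk (-0.97) and Cebpb (-0.89) among the second. Of the 16 leukocyte genes, 3 were higher, Lcp1 (2.45), Vav1 (1.48) and Cd37 (0.82), and 2 lower, Cd53 (-2.92) and Arhgdib (-0.50). Of 14 partners and kinases of the adaptors, 2 were higher, the phosphatase Ptpn6 (2.18) and Plcg2 (1.09), and Trem1 (-0.73) was lower. Csf1, the ligand of Csf1r, was lower in AECII (-1.19) and Csf3r higher (1.04), out of 6. Of the 8 other scavenger and lectin receptors 4 were lower, Mrc2 (-4.84), Olr1 (-3.19), Colec12 (-2.24) and Scara3 (-1.48), and 0 were higher. The lists thus did not move one way, and several of these genes are not restricted to macrophages. Pparg is also made by other lung cells, and Mrc2 and Colec12 are made by fibroblasts and stroma.

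The spread between arrays of 1 group was the main feature of the members. In PASMC the SD within groups was 1.96 for Marco, 1.95 for Tyrobp, 1.91 for Lyz2, 1.89 for Chil3, 1.54 for Fcer1g and 1.44 for Mrc1, where the median tested gene had 0.37. Each of these 6 was more variable than 99.0% or more of the tested genes. In AECII the SDs were 1.01 for Marco, 0.97 for Chil3, 0.86 for Tyrobp, 0.83 for Mrc1 and 0.72 for Fcer1g, where the median gene had 0.32, and each exceeded 93.91% or more of tested genes. Lyz2, at 0.43, exceeded 62.98% of them. Csf1r had an ordinary spread in both, 0.38 in AECII and 0.35 in PASMC. The dim members also varied. Cd68 had 0.94 in AECII, above 99.22% of tested genes, and 0.95 in PASMC, above 95.48%. Ptprc had 0.65 and 0.70 (88.75% and 87.37%) and Msr1 0.56 and 0.64 (78.06% and 81.68%).

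The 6 most variable members in PASMC varied together from array to array. Pearson's r was computed for all 45 pairs of members in each cell type over 24 arrays, after each value was centred on its group mean, with two-sided permutation p-values adjusted over the pairs of both cell types together. In PASMC 36 of the 45 pairs had an adjusted p under 0.05, all positive. The 15 pairs among Marco, Chil3, Lyz2, Mrc1, Fcer1g and Tyrobp, a grouping made after the values were seen, had r from 0.94 to 0.99 (median 0.97; Spearman's rho 0.91 to 0.98). Without the 2 arrays farthest from the median r was 0.91 to 0.99, and within each of the 3 conditions it was 0.93 to 0.99. These r pool arrays on both sides of a gap described below. Marco and Lyz2 correlated at 0.99 and Fcer1g and Tyrobp at 0.98, the permutation p of 1e-05 being the smallest that 100000 permutations can give and 3.75e-05 after adjustment. If arrays of different conditions come from the same mice, they are not independent and these p-values are too small.

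In AECII 23 of the 45 pairs passed, 2 of them negative. Among the same 6 genes 14 of 15 pairs passed, with r from 0.42 to 0.95 (median 0.77; rho 0.38 to 0.93), 0.29 to 0.94 without the 2 farthest arrays and 0.14 to 0.97 within conditions. Chil3, Fcer1g and Tyrobp formed the tightest trio at 0.94 to 0.95. The pair that missed was Marco and Lyz2 (r = 0.42, p = 0.0479, adjusted permutation p = 0.0718). Lyz2 had its highest r in this set with Fcer1g, 0.63. Whether the correlations differ between the cultures was not tested.

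The other members followed less closely. Csf1r correlated positively with most members in PASMC (r 0.38 to 0.81, 8 of 9 pairs called) and not in AECII, where its r ran from -0.59 to 0.10. There it was negative with Marco (r = -0.51, rho = -0.54, p = 0.0127, adjusted permutation p = 0.0205) and with Cd68 (r = -0.59, rho = -0.61, p = 0.00318, adjusted permutation p = 0.00572). The Csf1r probes that were not used did not follow this closely. In PASMC they had r of -0.11 and 0.32 with Tyrobp and of -0.078 and 0.36 with Marco. In AECII they had 0.015 and -0.27 with Marco. Cd68, though dim, passed in 7 of 9 pairs in each cell type. With Tyrobp its r was 0.58 in AECII and 0.77 in PASMC. Ptprc passed in 1 of 9 pairs in AECII and 8 of 9 in PASMC, and Msr1 in 0 and 1. The probe of Msr1 that was not used had r = 0.77 with Tyrobp in PASMC and 0.017 in AECII, whereas the probe used had 0.33 and -0.15.

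**Figure D3:**
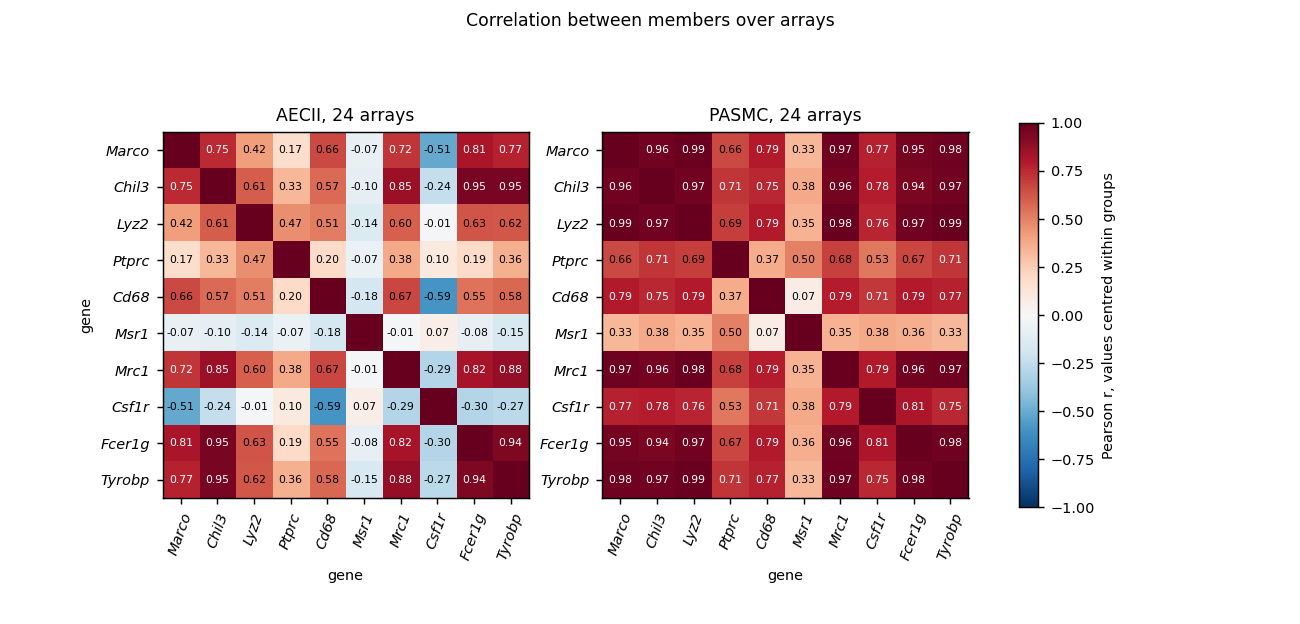
Each cell gives Pearson's r between 2 members over 24 arrays of AECII (left) or PASMC (right), with values centred within groups; both axes list the genes and the colour runs from -1 to 1. The rows of Marco, Chil3, Lyz2, Mrc1, Fcer1g and Tyrobp hold r of 0.94 to 0.99 in PASMC, and the Csf1r row holds values of -0.59 to 0.10 in AECII.

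**Figure D4:**
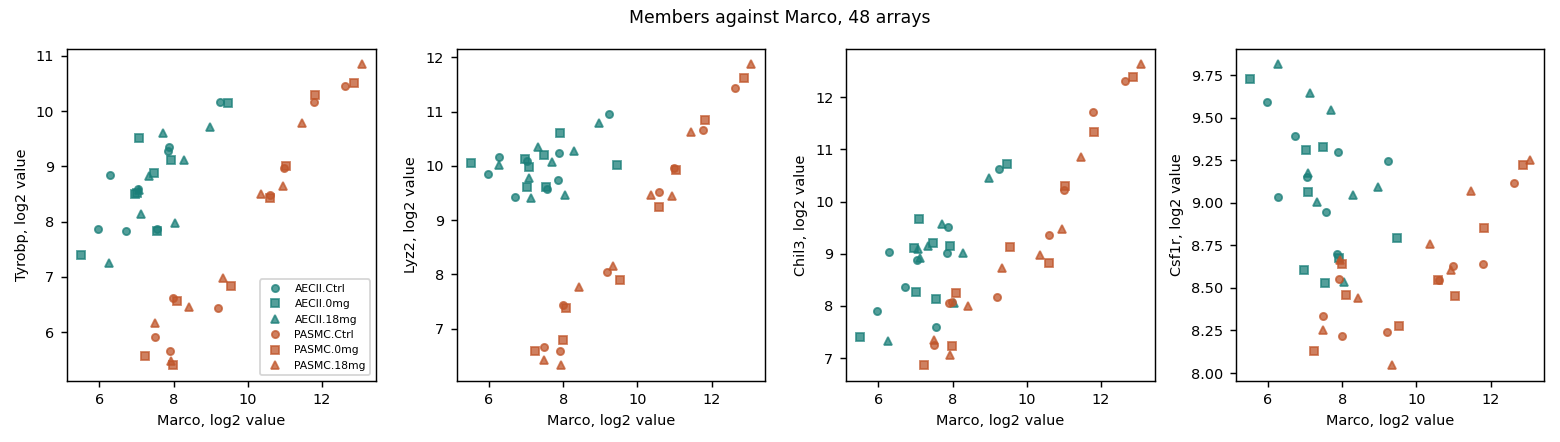
The log2 value of Tyrobp, Lyz2, Chil3 and Csf1r on the vertical axis is plotted against that of Marco on the horizontal axis for all 48 arrays, coloured by cell type and shaped by condition. The PASMC arrays form a line that spans 7.24 to 13.07 for Marco with all 3 conditions along its length, and AECII Lyz2 stays between 9.40 and 10.96.

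In PASMC the arrays of some members fell on either side of a gap. Tyrobp had 12 arrays between 5.39 and 6.97 and 12 between 8.42 and 10.85, separated by 1.45 (26.6% of its range). Each condition had 4 arrays on each side. Fcer1g had a gap of 1.15, Lyz2 of 1.08 and Marco of 0.82, again with 12 arrays below and 12 above. Taken separately, the 15 pairs had r from 0.89 to 0.98 (median 0.95) over the 12 arrays above the gap of Tyrobp and from 0.27 to 0.91 (median 0.75) over the 12 below it. All r were thus above 0 on either side. The pairs with Fcer1g were the lowest below the gap, from 0.27 with Marco to 0.51 with Tyrobp. The pooled r of 0.94 to 0.99 spans both sides. The gap was looked for after the values were seen and carries no test.

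The highest array of a group was mostly shared by the 6 genes, and the lowest was shared less often. The highest array of all 6 genes was replicate 6 in PASMC controls, replicate 1 in PASMC 0mg and replicate 7 in PASMC 18mg. In AECII it was replicate 8 in controls and replicate 3 in 18mg, and replicate 3 in 0mg except for Lyz2. The lowest PASMC control was replicate 5 for Marco, Chil3 and Mrc1 and replicate 3 for Lyz2, Fcer1g and Tyrobp, and the lowest AECII control was replicate 7, 6 or 3, depending on the gene. With 18mg the lowest AECII array was replicate 1 for all but Lyz2. With 0mg it was replicate 6 for all but Lyz2 and Mrc1. The lowest PASMC array was replicate 2 with 0mg except for Fcer1g and Tyrobp, and replicate 8 or 6 with 18mg. Put in order from highest to lowest, the 3 conditions gave nearly the same series for Marco in PASMC: 12.63, 12.87 and 13.07 at the top for Ctrl, 0mg and 18mg, 10.59, 10.59 and 10.36 at the fourth place, and 7.49, 7.24 and 7.49 at the bottom. The values at equal places differed by at most 0.44, in a range of 5.83. For the others of the 6 the largest difference was 0.49 (Lyz2), 0.59 (Tyrobp), 0.71 (Fcer1g), 0.78 (Mrc1) and 0.86 (Chil3). In AECII the largest difference for Marco was 0.79 in a range of 3.96. Ordering by itself brings the values of similar groups closer, and how much of this closeness it explains was not tested. The labels tie no place in the order to a mouse. Over all tested genes, centred on group means, the best match of a PASMC array among the 8 of another condition had a median r of 0.40. For Marco, the best matches of PASMC control replicates 2, 3, 4, 5, 6 and 8 held the same place in both extracts. That of replicate 1 did so with 18mg only, and those of replicate 7 in neither. Whether arrays of different conditions share mice was not tested.

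**Figure D5:**
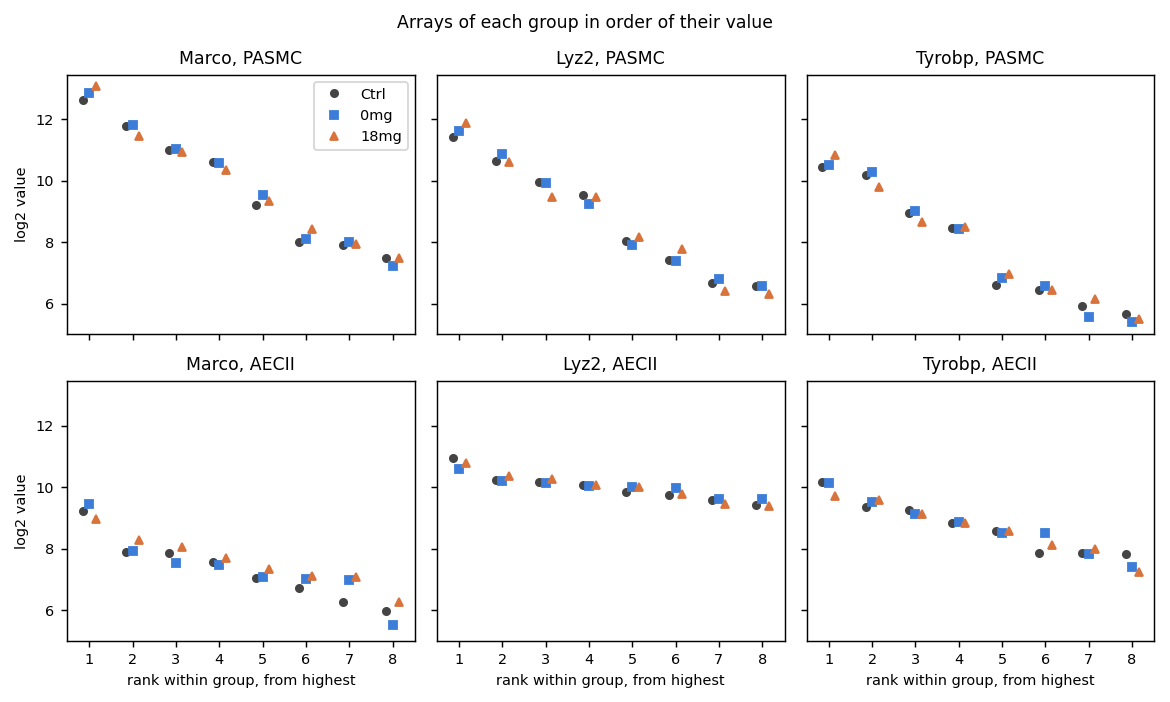
For Marco, Lyz2 and Tyrobp the 8 arrays of each condition are put in order from the highest log2 value, with the place on the horizontal axis and the value on the vertical axis, in PASMC (top) and AECII (bottom). In PASMC the Marco values of the 3 conditions at equal places lie within 0.44 of each other.

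The genes most like the members were then looked up. For each array the members were averaged after each was scaled to its own spread, and every tested gene was correlated with that mean, as a description over 24 arrays of a cell type that share RNA samples. In AECII the 10 closest were Myo1f and Atp6v0d2 (0.93 each), Mpeg1, the pore-forming protein perforin-2, the cathepsin Ctss and the inhibitory receptor Pirb (0.92 each), Clec7a, the beta-glucan receptor dectin-1, Lilrb4a, Clec4n and Plek, and Ctsk (0.90). In PASMC they were Mpeg1 (0.99), Bcl2a1d (0.98), Clec7a, Ctss and Clec4n (0.97 each), Gm6522, Alox5ap, Clec4d, Itgax and Pirb (0.96 each). Mpeg1, Ctss, Clec7a, Clec4n and Pirb were in both sets.

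By member, Tyrobp was closest to Clec7a in both cell types (0.98 in AECII and 0.99 in PASMC). Fcer1g was closest to Csf2rb (0.97), a chain of the CSF2 receptor, in AECII, and to Mpeg1 (0.98) in PASMC. Marco was closest to Tmcc3 and the chemokine Ccl6 (0.88 each) in AECII and to Clec7a (0.99) in PASMC. Lyz2 was closest to H2-Q6 (0.87) in AECII and to Clec7a (0.99) in PASMC. Csf1r was closest in AECII to Wt1 (0.88), Crb2 (0.87) and Foxo6 (0.86), none of them a macrophage gene, and in PASMC to the lipase Lpl (0.91). Msr1 was closest to Prss50 (0.77) in AECII and Zscan29 (0.71) in PASMC; its probe was near background.

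Other lists were set against the same mean. An r over 0.5 was found for 615 of 14467 other tested genes (4.25%) in AECII and 569 of 14535 (3.91%) in PASMC, with a median r of -0.012 in both. Of the alveolar macrophage markers 7 of 11 exceeded 0.5 in AECII and 6 of 10 in PASMC. Siglecf, the lectin by which these cells are sorted, had 0.81 and 0.88, but its PASMC mean of 3.51 was near background. Itgax had 0.90 and 0.96, the ribonuclease Ear2 0.90 and 0.87, and Plet1 0.78 and 0.95. Others of this list did not follow the members: Car4 had -0.31 in AECII and -0.0001 in PASMC, Krt79 0.10 and 0.45, and Cidec, which was near background, 0.15 and 0.25. Pparg had -0.43 and 0.54, and Fabp4 0.83 and 0.29. Of the leukocyte genes 11 of 16 and 14 of 16 exceeded 0.5, such as Itgb2 (0.87 and 0.95) and Laptm5 (0.82 and 0.90). The brightest of them, Arhgdib, had 0.0064 and 0.50. Itgal had 0.56 and 0.19 and Was 0.41 and 0.40, both near background. Of the adaptor partners and kinases 8 of 14 and 12 of 15 exceeded 0.5, among them Trem2 (0.86 in each), Clec4d (0.89 and 0.96) and Syk (0.68 and 0.80). Trem1 had 0.11 and -0.41 and Plcg2 -0.22 and 0.50. Of the macrophage and monocyte list 6 of 19 and 12 of 18 exceeded 0.5. Lyz1 had 0.30 in AECII and 0.89 in PASMC, while Cd14 (0.021 and 0.083) did not vary with the members in either. Itgam, which was bright, had 0.11 and 0.41. Apoe had 0.49 in AECII and -0.36 in PASMC, and Lgmn had 0.68 and -0.47.

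Markers of other leukocytes were mostly dim, which limits what their correlations can show. In AECII 3 of 6 neutrophil, 3 of 7 T and NK cell, 1 of 5 B and plasma cell, 2 of 5 dendritic cell and 2 of 5 mast cell genes had a mean above the background line. In PASMC these were 3 of 5, 3 of 6, 0 of 3, 1 of 5 and 3 of 4. The counts over 0.5 were 0 of 6 and 0 of 5 for neutrophil genes, 0 of 7 and 0 of 6 for T and NK cell genes, 1 of 5 and 0 of 3 for B and plasma cell genes (Jchain, 0.75, near background), 1 of 5 and 1 of 5 for dendritic cell genes and 0 of 5 and 1 of 4 for mast cell genes, in AECII and PASMC. The CSF1 and CSF2 list had 2 of 6 in each, the chains Csf2ra (0.86 and 0.68) and Csf2rb (0.90 and 0.95), whereas Csf1 had 0.45 and 0.47. Of the other scavenger receptors only the fatty acid transporter Cd36 (0.64 and 0.88), out of 8 tested, exceeded 0.5.

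Markers of the cultured cell types also moved with the members to a degree. In PASMC, of 8 tested type II markers 3 exceeded 0.5, Sftpb (0.70), Sftpc (0.69) and Sftpd (0.62), and 6 of 9 smooth muscle markers did, at a median r of 0.53, for example Cnn1 (0.58) and Acta2 (0.54). The mean of the smooth muscle list ran from 9.92 to 11.90 over PASMC arrays. Fibroblast markers had 0 of 7 and endothelial markers 2 of 7. In AECII 1 of 9 type II markers (Sftpa1, 0.72), 3 of 8 smooth muscle markers (Acta2 0.81, Actg2 0.79, Tagln 0.76), 2 of 7 fibroblast markers and 2 of 7 endothelial markers exceeded 0.5. No gene of any of these lists was under -0.5. The part that differences in the makeup of the cultures have in the spread of the members was not tested.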

How the data were processed

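Single-colour (Cy3) Agilent arrays measured total RNA of 48 samples. The deposited table holds 1 log2 value per feature and array, already quantile normalised as its matching array distributions show. Per the submitters' processing notes limma was used (no version given), and the original intensities were not used here. Of 62976 features 31465 have 1 gene name (RefSeq table for GRCm38: 29050 by accession, 2061 by current symbol, 349 by synonym, 5 as given), and 28 values were missing, 0 of them in the members. Where a gene has several features, the one with the highest mean was used (Msr1 has 2 features, Csf1r 3, the others 1).

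Groups were taken from the labels. Models were fitted with limma 3.58.1 (R 4.3.3, statmod 1.5.0) by lmFit and eBayes, over the 24 arrays of a cell type or all 48 where cell types were compared. Genes with a mean over 2.73 (the 30th percentile) were tested, 14477 in AECII, 14545 in PASMC and 14775 across both. Tests are two-sided with Benjamini-Hochberg adjustment over all tested genes. The scripts were tested on simulated data. The number of arrays limits the precision.

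All 10 members are named, with the 10 genes most like their mean in each cell type, up to 3 most like a member, list genes with the highest means and up to 4 called genes per direction from the macrophage, leukocyte, adaptor, growth factor and scavenger lists. Other list genes were named after their values were seen. Members and lists were chosen with earlier results of these data known. Alternatives were a block for the replicate number, a filter at the 50th percentile or none, median centring, another round of quantile normalisation, the mean of a gene's probes, a robust trended variance, array weights, other arrays in the fit, Spearman's rho and leaving out each array. Replicate numbers do not pair the arrays: same-numbered arrays correlated at -0.21 to 0.28 in AECII and -0.40 to 0.62 in PASMC, with over 0.1 in 5 and 9 of 24 pairs.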

Additional observations from a re-analysis of the deposited data

Results flagged for a closer look

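In 60 combinations of member and group, each of 8 arrays, 3 had an end array set apart from the others by more than Dixon's critical value for the gap as a share of the range, which chance gives for about 1 in 20. Csf1r in PASMC control replicate 6 was 9.12, with the next array at 8.64 (gap 0.53 of the range). That array was also the highest PASMC control for Marco, Chil3, Lyz2, Mrc1, Fcer1g, Tyrobp and Cd68. Msr1 in AECII 0mg replicate 6 was 3.87, next 3.05 (0.54), and Msr1 in PASMC control replicate 2 was 4.75, next 3.55 (0.70). The first of these Msr1 values is under the near-background limit of 3.98 and the second is above it.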

How the results depend on the processing

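The counts of called members kept their value under every alternative run that leaves in all arrays: 0 for each comparison of extracts and for both differences of response between cell types, and 2 (Marco and Csf1r) between control cultures. With the replicate number as a block these were again 0 and 2, and no call of a member changed. That number does not pair the arrays. Without each array in turn the counts were 0 for the extracts and 2 to 3 between cultures, the third being Lyz2 without PASMC control replicate 6 (1.60, adjusted p 0.0381). Over the alternatives Marco was -2.75 to -2.51 (adjusted p 0.000546 to 0.00697) and Csf1r 0.55 to 0.64 (0.000991 to 0.00312), and without each array -2.84 to -2.11 and 0.58 to 0.72 (limma). Pairs of members with a called correlation numbered 21 to 27 in AECII and 34 to 43 in PASMC under the alternatives, and 20 to 24 and 34 to 44 without each array. Values near background limit Ptprc, Cd68 and Msr1, and the spread between PASMC arrays limits the others.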
